A study of Mus musculus with 16 samples.

Results

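The genes described here encode the TGF-beta ligands (Tgfb1, Tgfb2, Tgfb3), their receptors (Tgfbr1, Tgfbr2, Tgfbr3) and the latent TGF-beta binding proteins (Ltbp1, Ltbp2, Ltbp3, Ltbp4). They were chosen by symbol and make up 10 of the 36829 features listed for each mouse. RNAseq was performed on cortical bone of the femur, cut at its ends and flushed of marrow, from 16 female C57Bl/6 mice of 11 weeks with 1 library per mouse. The 8 Control mice bore weight normally, and the 8 HLU mice underwent hindlimb unloading, in which a tail harness keeps the hind limbs off the floor, for 7 days. The harness was fitted under isoflurane anesthesia, and no anesthesia is described for the Control mice. No other treatment or genotype is given for either group, and cortical bone holds several cell types. Transcript abundance is given as RPKM, the read number of a gene over its length and library size. The reads by which each library was scaled, recovered from the values, ranged from 7067512 (Control 2) to 21363584 (HLU 6).

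TGF-beta is made by bone cells and stored in bone matrix as an inactive complex, in which the mature ligand stays bound to its own propeptide. Latent TGF-beta binding proteins tie that complex to fibrillin and fibronectin fibres, and integrins or proteases release the ligand, for instance while osteoclasts resorb bone. The free ligand binds a type II receptor, for some ligands with help of the co-receptor betaglycan, and that receptor activates a type I receptor and through it Smad2 and Smad3.

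Promoter sequence is shown for the 4 latent TGF-beta binding proteins because their transcripts differed in how they varied between mice, as described further on. RefSeq promoters on GRCm38.p6 were matched for 8 of the 10 genes, and Tgfb3 and Tgfbr3 had no entry. Each line covers the 170 bases from 250 to 81 bases before the start farthest upstream, 5′ to 3′ on the strand of the gene, and capitals mark GGGCGG or CAGAC read on either strand.
Ltbp1 (chr17:75005279-75005448, plus strand): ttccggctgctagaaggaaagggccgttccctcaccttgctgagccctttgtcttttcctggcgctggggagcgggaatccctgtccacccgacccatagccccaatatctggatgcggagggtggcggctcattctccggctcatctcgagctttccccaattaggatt
Ltbp2 (chr12:84876572-84876741, minus strand): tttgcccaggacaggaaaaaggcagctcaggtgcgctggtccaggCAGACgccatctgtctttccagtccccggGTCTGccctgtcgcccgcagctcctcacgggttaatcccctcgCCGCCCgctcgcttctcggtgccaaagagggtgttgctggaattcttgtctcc
Ltbp3 (chr19:5740650-5740819, plus strand): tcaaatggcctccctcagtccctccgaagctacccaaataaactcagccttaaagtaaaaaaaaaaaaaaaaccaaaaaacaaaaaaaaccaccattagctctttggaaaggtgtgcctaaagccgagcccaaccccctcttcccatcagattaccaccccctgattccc
Ltbp4 (chr7:27337693-27337862, minus strand): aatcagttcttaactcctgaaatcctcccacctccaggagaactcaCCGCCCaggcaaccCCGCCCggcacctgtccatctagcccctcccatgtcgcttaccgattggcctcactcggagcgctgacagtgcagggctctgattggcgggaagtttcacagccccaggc
GGGCGG, or CCGCCC on the other strand, is the GC box, and it was present 2 times in Ltbp4, 1 time in Ltbp2 and in neither Ltbp1 nor Ltbp3, against 19.5% of 32851 promoter windows of the same length. CAGAC, a short sequence that Smad proteins can bind, was present 2 times in Ltbp2 and in none of the other windows shown, against 31.8% of all windows. The Ltbp3 window had the lowest G and C content of the 4 at 44.1%, beside 58.8% for Ltbp1, 62.4% for Ltbp2 and 60.6% for Ltbp4, and the median of all windows was 51.2%. These matches describe letters and were not tested as binding sites.

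Levels were compared as RPKM, which is per length. All 10 genes passed the filter of a mean of at least 0.5 RPKM, as did 16973 of all features. Tgfbr2 had the highest mean over 16 mice, 17.4 ± 2.70 RPKM (SD, n = 16), followed by Tgfb3 at 14.05 ± 5.96, Tgfbr1 at 12.5 ± 3.30 and Tgfb1 at 12.5 ± 3.92. Tgfbr3 had a mean of 8.46 ± 1.39 RPKM, Ltbp3 of 6.47 ± 2.62, Ltbp1 of 6.33 ± 0.949, Tgfb2 of 5.61 ± 2.11, Ltbp2 of 2.73 ± 0.770 and Ltbp4 of 0.730 ± 0.583 RPKM. In this order only Ltbp2 and Ltbp4 lay apart beyond 1 SD on either side, so the order of all other neighbours was within their spread. The order also rests on the gene lengths behind the values. With the longest GENCODE M21 transcript of each gene as its length, Tgfbr1 moved from position 3 to position 1 and Ltbp1 from position 7 to position 3.

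**Figure D1:**
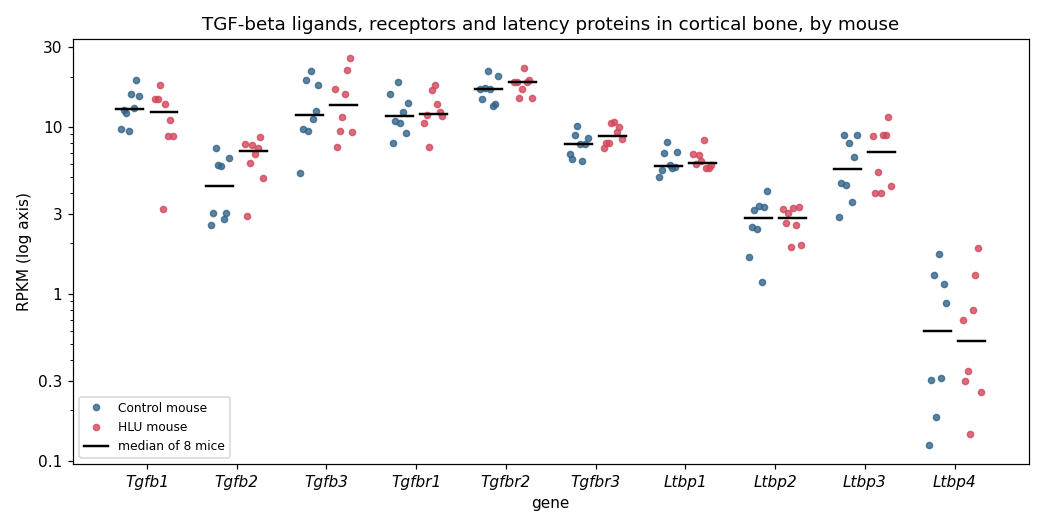
RPKM of the 10 genes (log axis) in each Control mouse (blue) and HLU mouse (red), with the median of 8 mice as a bar. Groups overlap for every gene, Ltbp4 spreads the most, from 0.125 to 1.87 RPKM, and Tgfb1 has 1 low mouse, HLU 4, at 3.23 RPKM.

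The question put to every gene was whether 7 days of unloading changed its transcript abundance. None of the 10 genes passed either call rule of limma, which asked for a fold of 1.2 or more together with either an adjusted p under 0.1 (0 of 16973 features, 0%) or an unadjusted p under 0.05. By the unadjusted rule 188 features (1.11%) were called higher and 808 (4.76%) lower in HLU, and 1049 features (6.18%) had an unadjusted p under 0.05 at any fold. At such shares 0 of 10 genes says little about these genes as a set. Log2 fold changes, HLU minus Control on the scale of log2(RPKM + 0.1), were above 0 in 8 of the 10 genes with a median of 0.09, whereas 32.1% of all features were above 0 with a median of -0.10. Median-of-ratios rescaling of the libraries moved the median of all features to -0.02 and the calls to 376 higher and 401 lower, and quantile normalization gave 460 and 364, so the excess of lower calls depended on the scaling.

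**Figure D2:**
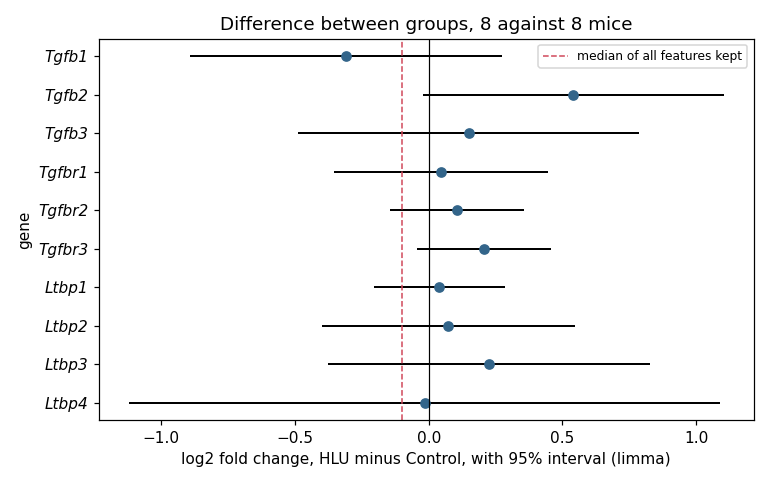
Log2 fold change of each gene, HLU minus Control, with its 95% interval from limma (8 against 8 mice). The dashed line is the median of all 16973 features, -0.10, and every interval includes 0.

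Among the ligands, Tgfb2 had the lowest p. In Control mice it ranged from 2.57 to 7.43 RPKM with a median of 4.44, and in HLU mice from 2.90 to 8.68 RPKM with a median of 7.17. HLU 1, HLU 4, HLU 6 and HLU 7 lay above every Control mouse and HLU 2 lay among the lowest Control mice, so the groups overlapped. The log2 fold change was 0.54 (95% interval -0.02 to 1.10) in limma, with p = 0.0581 and adjusted p = 0.744, and a two-sided exact permutation test over every way to divide the mice gave p = 0.0760. In 7 of 8 HLU mice Tgfb2 was above the Control median. The summed osteocyte markers, described further on, had medians of 315.7 RPKM in Control and 510.8 RPKM in HLU mice, with overlapping ranges. Tgfb2 followed that list between mice with Pearson r = 0.87, and the part of cell composition in its difference was not tested. The call depended on the processing. Tgfb2 passed the unadjusted rule with median-of-ratios rescaling (log2 fold change 0.63), quantile normalization (0.65) or voom on the recovered reads (0.62). It also passed without Control 3, Control 4, Control 5, Control 8 or HLU 2, at log2 fold changes of 0.60 to 0.70, while its adjusted p from limma ranged from 0.293 to 0.976 over all alternatives.

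Tgfb1, the ligand best known from platelets and bone matrix, ranged from 9.43 to 18.96 RPKM in Control mice (median 12.8) and from 3.23 to 17.7 RPKM in HLU mice (median 12.3). HLU 4 stood below all other mice, and 3 HLU mice lay below the lowest Control mouse. Its log2 fold change was -0.31 (95% interval -0.89 to 0.27; limma p = 0.276, exact permutation p = 0.350), and without HLU 4 it was -0.07. With erythroid and granulocyte marker scores as covariates it turned to 0.17. Tgfb3 ranged from 5.28 to 21.7 RPKM in Control mice (median 11.7) and from 7.61 to 25.8 RPKM in HLU mice (median 13.6). HLU 6 and HLU 7 held its highest values and Control 1 the lowest, and the log2 fold change was 0.15 (95% interval -0.49 to 0.79; exact permutation p = 0.651). Tgfb1 was the most abundant ligand in 4 Control and 2 HLU mice and Tgfb3 in 4 Control and 6 HLU mice, while Tgfb2 led in none. These counts rest on the gene lengths behind the values, and in Control 4 Tgfb1 (9.43 RPKM) and Tgfb3 (9.44 RPKM) were nearly equal. As a share of the summed RPKM of the ligands, Tgfb2 made up 14.9 ± 4.91% for Control and 20.5 ± 6.50% for HLU (mean ± SD of 8 mice), and the values of the groups overlapped.

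The receptors showed no separation of the groups. Tgfbr1, the type I receptor kinase, ranged from 8.03 to 18.6 RPKM in Control mice (median 11.5) and from 7.58 to 17.7 RPKM in HLU mice (median 11.9), with a log2 fold change of 0.05. Tgfbr2, the type II receptor that binds ligand first, ranged from 13.3 to 21.4 RPKM (median 16.9) and from 14.8 to 22.6 RPKM (median 18.4), with a log2 fold change of 0.11. Both groups spanned nearly the same values for these receptors. Tgfbr3, which encodes betaglycan, ranged from 6.20 to 10.1 RPKM in Control mice (median 7.89) and from 7.48 to 10.6 RPKM in HLU mice (median 8.86). HLU 4 and HLU 5 lay above every Control mouse and 7 of 8 HLU mice above the Control median. Its log2 fold change was 0.21 (95% interval -0.05 to 0.46) with p = 0.101 and adjusted p = 0.744 in limma and p = 0.0816 in the exact permutation test. It passed the unadjusted rule at log2 fold changes of 0.29 with median-of-ratios rescaling and 0.32 with quantile normalization, with adjusted p over all alternatives from 0.441 to 0.976 by limma.

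Of the latency proteins, Ltbp1 varied least, from 4.99 to 8.13 RPKM in Control mice (median 5.85) and from 5.64 to 8.37 RPKM in HLU mice (median 6.07). Ltbp2, which binds fibrillin but no latent ligand, ranged from 1.17 to 4.14 RPKM (median 2.84) and from 1.91 to 3.31 RPKM (median 2.84), and its HLU values lay within those of the Control mice. Ltbp3, whose product joins latent TGF-beta before secretion, ranged from 2.87 to 8.92 RPKM in Control mice (median 5.57) and from 3.99 to 11.5 RPKM in HLU mice (median 7.07). The log2 fold changes were 0.04 for Ltbp1, 0.07 for Ltbp2 and 0.22 for Ltbp3, and exact permutation p-values were 0.701, 0.772 and 0.468. Ltbp4 ranged from 0.125 to 1.74 RPKM in Control mice (median 0.594) and from 0.144 to 1.87 RPKM in HLU mice (median 0.521), with a log2 fold change of -0.02 (95% interval -1.12 to 1.09). With erythroid and granulocyte marker scores as covariates it was 0.77, and its sign turned in 12 of 28 alternatives. Ltbp4 rested on 21 to 320 reads per mouse, against 133 to 995 for Tgfb2 and 838 to 3216 for Tgfbr2, so its level is the least precise of the 10. Its interval leaves room for differences of up to about 2-fold in either direction.

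Other genes of the pathway were called at a rate near that of all features. Of 54 further genes on lists for activation, matrix reservoir, membrane regulators, the Smad route and target genes, 51 passed the filter, with 1 called higher and 1 lower by the unadjusted rule (1.11% and 4.76% over all features), 0 by the adjusted rule and a median log2 fold change of 0.03, beside the median of -0.10 over all features. Zfyve9, which anchors Smad2 and Smad3 for the receptor, ranged from 3.22 to 8.05 RPKM in Control mice and from 4.396 to 11.8 RPKM in HLU mice (log2 fold change 0.58; limma adjusted p = 0.744). Itgb3, an integrin chain of platelets and osteoclasts that can release latent TGF-beta, ranged from 79.4 to 125.2 RPKM and from 50.1 to 106.3 RPKM (log2 fold change -0.46; limma adjusted p = 0.744). Both groups overlapped for both genes. The most abundant matrix genes, Dcn and Bgn, had log2 fold changes of 0.52 and 0.03, the most abundant membrane regulators, Cd109 and Bambi, of 0.27 and 0.25, and the most abundant target genes, Col1a1 and Tnc, of -0.13 and 0.17. None of these 6 genes passed either rule.

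Marker lists describe which cell types the bone RNA may hold, and the cells that carried each transcript were not resolved. In bulk samples, fewer cells of a type and less RNA per cell cannot be told apart. Bone cell markers were abundant: summed over the 6 osteocyte genes, led by Mepe, the median was 315.7 RPKM in Control mice (178.7 to 588.9) and 510.8 RPKM in HLU mice (262.6 to 598.0). For the 8 osteoblast genes, led by Ibsp, the medians were 1426 and 1592 RPKM. For the 8 osteoclast genes, led by Ctsk, they were 1062 and 1267 RPKM. Blood cell markers were abundant as well after flushing. The 8 granulocyte genes of 12 written, led by S100a8, had medians of 30817 RPKM in Control and 25649 RPKM in HLU mice, the 11 erythroid genes of 12, led by Hbb-b1, 2569 and 1816 RPKM, and the 10 megakaryocyte and platelet genes of 11, led by Ppbp, 1480 RPKM (1074 to 1820) and 867.8 RPKM (460.7 to 1559). The other medians in Control and HLU mice were 238.0 and 198.6 RPKM for 9 macrophage genes led by C1qb, 79.9 and 66.3 RPKM for 7 of 8 B lymphocyte genes led by Cd79b, and 91.6 and 96.0 RPKM for 10 endothelial genes led by Pecam1. They were 18.99 and 20.66 RPKM for 8 cartilage genes led by Col2a1, with Col10a1, Matn1 and Matn3 at 0 in some mice. For 6 stromal genes led by Cxcl12 they were 279.2 and 260.0 RPKM. For 5 of 6 adipocyte genes led by Adipoq they were 76.5 and 107.5 RPKM. Sums include genes below the filter, whereas 7 osteoclast, 3 cartilage and 4 adipocyte genes passed it and entered the list scores. Skeletal muscle genes were not analysed here.

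Covariation between mice was measured on log2(RPKM + 0.1) with the mean of each group removed. A difference between groups could then not enter r. The sets of mice made from Ltbp4, described further on, are the exception, as group means were kept there. Over 45 pairs of the 10 genes the median Pearson r was 0.40, beside 0.04 over all pairs of the 16973 features, and the median of its size without sign was 0.439 beside 0.329. Of the 45 pairs 11, all positive, had an adjusted p under 0.05 by permutation within groups. The share of all feature pairs called by this rule is not given. Counts of called pairs here and below therefore say nothing particular about these genes. High r was not rare among features at large, since 11.4% of all their pairs had r above 0.6. Ltbp4 values left a gap, with 8 mice at 0.342 RPKM or less and 8 at 0.699 RPKM or more, 4 of each group on either side, so its pairs are described separately and 36 pairs remain, of which 8 passed.

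**Figure D3:**
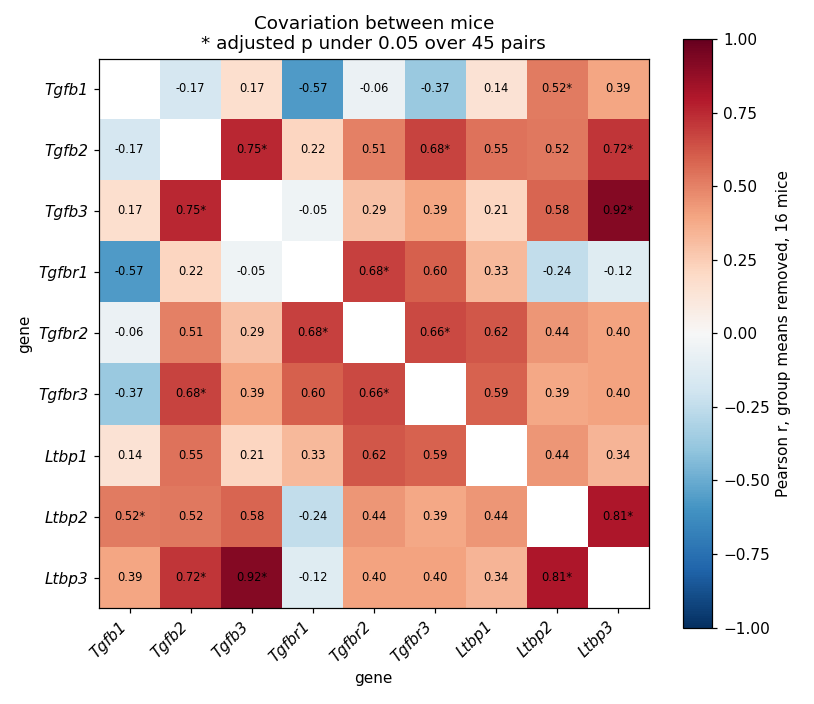
Pearson r between 9 of the 10 genes over 16 mice with group means removed, Ltbp4 left out because its values fall into separate sets. An asterisk marks an adjusted p under 0.05 over 45 pairs, and Tgfb3 with Ltbp3 has the highest r, 0.92.

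Among the 36 pairs without Ltbp4, Tgfb3 and Ltbp3 had the highest r. Pearson r was 0.92 and Spearman rho 0.89, both at p = 1e-05, the smallest that the permutations can give (adjusted p = 0.00045 over 45 pairs), and r was 0.89 without the 2 mice farthest from the median of Tgfb3. The exact permutation test within groups gave r = 0.92 in Control mice (p = 0.00124) and r = 0.92 in HLU mice (p = 0.00466). In 16 of 16 mice both genes lay on the same side of their group means. Ltbp2 followed Ltbp3 with r = 0.81 (permutation p = 9e-05, adjusted p = 0.00101) and rho = 0.81 (permutation p = 0.00021), and r was 0.79 without the 2 mice farthest in Ltbp2. Tgfb2 followed Tgfb3 with r = 0.75 (permutation p = 0.00086, adjusted p = 0.00774) and rho = 0.70 (permutation p = 0.00277), and r was 0.62 without the 2 mice farthest in Tgfb2. The pairs of Ltbp2 with Tgfb3 (r = 0.58, permutation adjusted p = 0.0699) and with Tgfb2 (r = 0.52, permutation adjusted p = 0.135) did not pass, whereas Tgfb2 followed Ltbp3 with r = 0.72 (permutation p = 0.00325, adjusted p = 0.0244 and rho = 0.74, permutation p = 0.00238). Of the 6 pairs of these 4 genes 4 passed, but the genes were grouped after seeing these values, so that count is no separate result. Tgfb2 with Tgfbr3 (r = 0.68) and Tgfb1 with Ltbp2 (r = 0.52) passed too, each at permutation adjusted p = 0.0356.

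Of the 3 receptor pairs 2 passed. Tgfbr1 and Tgfbr2 had r = 0.68 (permutation p = 0.00629, adjusted p = 0.0354) and rho = 0.61 (permutation p = 0.0184), and r was 0.53 without the 2 mice farthest in Tgfbr1. Tgfbr2 and Tgfbr3 had r = 0.66 (permutation p = 0.0106, adjusted p = 0.0432) and rho = 0.64 (permutation p = 0.0113), with r = 0.48 without the 2 farthest mice. Tgfbr1 and Tgfbr3 had r = 0.60 (permutation adjusted p = 0.0691). Each of the relations that passed lost its call when the 2 smallest libraries, Control 2 and HLU 5, were left out, with r of 0.59 and 0.58. Tgfb1 did not follow the other ligands, with r = 0.17 to Tgfb3 (permutation adjusted p = 0.640) and r = -0.17 to Tgfb2 (0.584). Its pair with Tgfbr1 had r = -0.57 (permutation p = 0.0233, adjusted p = 0.0699) and rho = -0.60 (permutation p = 0.0160). That r was -0.41 without the 2 mice farthest in Tgfb1, -0.79 without the 2 smallest libraries and -0.70 with median-of-ratios rescaling.

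The mice on either side of the gap in Ltbp4 also differed in Tgfb3 and Ltbp3, which had no gap of such size there. In Control 1, Control 2, Control 4, Control 6, HLU 2, HLU 3, HLU 4 and HLU 8, Ltbp4 was low, Ltbp3 ran from 2.87 to 5.36 RPKM and Tgfb3 from 5.28 to 11.4 RPKM. In the other 8 mice Ltbp3 ran from 6.55 to 11.5 RPKM and Tgfb3 from 12.4 to 25.8 RPKM, so neither gene overlapped between these sets. The sets were made from Ltbp4 after seeing the data, and both genes lay on the same side of their group means as Ltbp4 in 16 of 16 mice, so this restates their covariation and is no separate result. Of all 16973 features 635 (3.74%) did not overlap between the sets either. Within the lower 8 mice Ltbp3 and Ltbp4 had r = 0.58 (exact permutation p = 0.129 and rho = 0.55, p = 0.171), and within the higher 8 r = 0.24 (exact permutation p = 0.607 and rho = 0.40, p = 0.327). Tgfb3 and Ltbp3 had r = 0.56 (exact permutation p = 0.159 and rho = 0.10, p = 0.840) in the lower and r = 0.77 (exact permutation p = 0.0295 and rho = 0.64, p = 0.0962) in the higher 8 mice. Ltbp2 and Ltbp3 had r = 0.74 (exact permutation p = 0.0365 and rho = 0.83, p = 0.0154) in the lower and r = -0.03 (exact permutation p = 0.902 and rho = -0.33, p = 0.428) in the higher 8 mice. The split narrows the range of Ltbp4 and of the genes that follow it. These r therefore do not show where a relation over 16 mice lies. Group means were not removed within these sets, each of 4 Control and 4 HLU mice, so a difference between groups can enter r. Ltbp4 had a coefficient of variation of 79.8% over 16 mice, and 15.3% of 3501 features within 2-fold of its mean had a higher one.

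**Figure D4:**
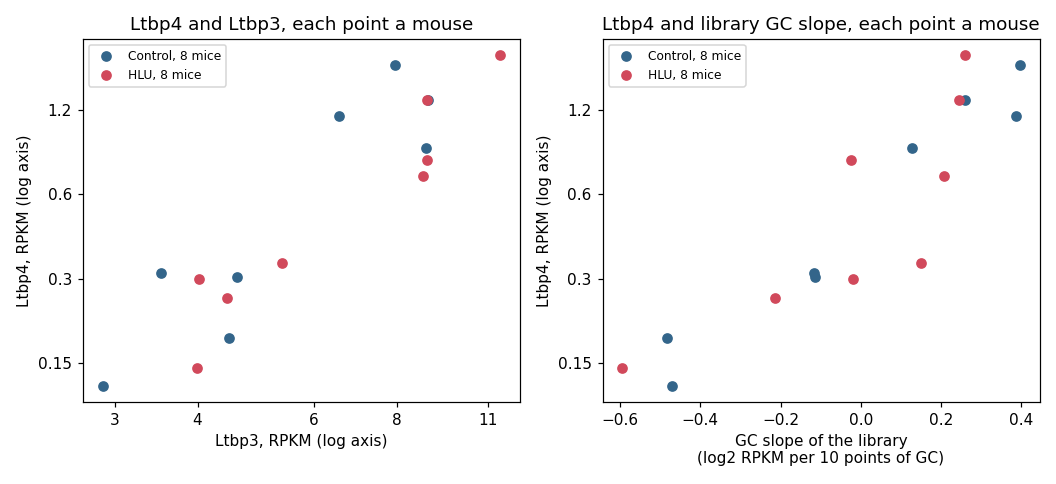
Ltbp4 in RPKM (log axis) against Ltbp3 in RPKM (log axis, left) and against the GC slope of the library (right), each point 1 mouse, Control in blue and HLU in red. The 8 mice at 0.342 RPKM or less and the 8 at 0.699 RPKM or more each hold 4 Control and 4 HLU mice.

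Base composition of the libraries moved with 6 of these genes at an unadjusted permutation p under 0.05, and with 45.8% of all features, so the count says little about these genes. For each library the slope of its log2 RPKM, centred per gene, on the G and C content of the gene ran from -0.59 in HLU 4 to 0.40 in Control 5 per 10 points. The relation of each gene with this slope, added after seeing the data, had r = 0.78 for Ltbp3 (permutation p = 0.00088, adjusted p = 0.0036 over 10 relations and rho = 0.77, permutation p = 0.00142; r = 0.79 without the 2 farthest mice) and r = 0.69 for Tgfb3 (permutation p = 0.00401, adjusted p = 0.01003 and rho = 0.71, permutation p = 0.00333; r = 0.78 without the 2 farthest mice). For Tgfb1 it was r = 0.73 (permutation p = 0.00108, adjusted p = 0.0036 and rho = 0.59, permutation p = 0.0146; r = 0.51 without the 2 farthest mice). Ltbp2 had r = 0.67 (permutation p = 0.00741, adjusted p = 0.0148 and rho = 0.80, permutation p = 0.00148), and Tgfbr1 went the other way with r = -0.58 (permutation p = 0.0261, adjusted p = 0.0435 and rho = -0.56, permutation p = 0.0321). Without the 2 farthest mice these were 0.71 and -0.35, so r of Tgfbr1 depended in part on those mice. In Control mice alone Tgfbr1 had r = -0.67 (exact permutation p = 0.0728), and in HLU mice alone r = -0.47 (exact permutation p = 0.252). Within the lower 8 mice Ltbp4 had r = 0.93 with the slope (exact permutation p = 0.000967 and rho = 0.83, p = 0.0154), and within the higher 8 r = 0.64 (exact permutation p = 0.0850 and rho = 0.74, p = 0.0458). With the endothelial markers it had r = 0.87 (exact permutation p = 0.00598 and rho = 0.95, p = 0.00114) in the lower and r = 0.05 (exact permutation p = 0.907 and rho = 0.21, p = 0.619) in the higher 8 mice. With Tgfbr1 and Tgfb1 it had r = -0.82 and 0.74 in the lower 8 mice (exact permutation p = 0.016 and 0.019). In the higher 8 these were -0.30 and -0.32 (exact permutation p = 0.472 and 0.448). With Ltbp1 it had r = 0.05 in the lower and -0.72 in the higher 8 mice (exact permutation p = 0.918 and 0.048). As the sets come from Ltbp4 itself, these p-values describe the values and test nothing new. Group means were kept within these sets as well. The transcripts of Ltbp4 (62.2% G and C, above 98.9% of genes), Ltbp2 (58.5%) and Ltbp3 (58.3%) are rich in these bases and that of Tgfbr1 (41.0%) is poor. Base content did not go with r in every gene. Ltbp1 (52.7%) had r = -0.02 with the slope, beside r = 0.73 for Tgfb1 (52.5%) and r = 0.69 for Tgfb3 (53.0%). With the slope regressed out, Tgfb3 and Ltbp3 kept r = 0.84 and Ltbp2 and Ltbp3 r = 0.61. In all 27 of 45 pairs then passed. The share of all feature pairs under the same regression is not given here, so this count says nothing particular about these genes. Of the 11 pairs that had passed before 9 still did, and the pairs lost were Tgfb1 with Ltbp2, where r went from 0.52 to 0.06 (permutation adjusted p = 0.764), and Ltbp2 with Ltbp4 (permutation adjusted p = 0.207). Tgfb1 turned negative to Tgfb3, at r = -0.69 (permutation adjusted p = 0.0232), and its r to Tgfb2 became -0.53 (permutation adjusted p = 0.0437). Its r to Tgfbr1 went from -0.57 to -0.26 (permutation adjusted p = 0.417). Tgfbr1 turned from r = -0.12 to 0.64 with Ltbp3 (permutation adjusted p = 0.0232) and from -0.05 to 0.61 with Tgfb3 (permutation adjusted p = 0.0335). These p-values do not count the term removed. The part of base composition in the covariation was not tested, since the slope is built from the same libraries.

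Members and marker lists gave 120 relations, of which 31 had an adjusted p under 0.05, and 28 of 108 without Ltbp4. At an unadjusted permutation p under 0.05 there were 43 of 120, beside 29.0% of the relations of all features with the same lists. The share of all features was 27.9% for the osteocyte, 42.1% for the granulocyte and 42.1% for the endothelial list, and 8.22% for the osteoclast list. That share was 39.8% for the adipocyte, 39.9% for the cartilage and 31.2% for the megakaryocyte and platelet list. Tgfb2 followed the osteocyte list with r = 0.87 (permutation p = 4e-05, adjusted p = 0.0012) and rho = 0.82 (permutation p = 0.00058), with r = 0.81 without the 2 mice farthest in the list. It ran against the granulocyte list with r = -0.78 (permutation p = 2e-05, adjusted p = 0.0012) and rho = -0.78 (permutation p = 5e-05), with r = -0.71 without the 2 farthest mice, and lay on the opposite side of its group mean from the list in 16 of 16 mice. Tgfb2 was thus high in mice with high osteocyte and low granulocyte marker scores. Tgfb3 had its highest r with the endothelial list, 0.85 (permutation p = 0.00018, adjusted p = 0.0027) and rho = 0.82 (permutation p = 0.00043), and r was 0.88 without the 2 farthest mice. Its r was 0.84 with the adipocyte list (permutation adjusted p = 0.00257) and 0.81 with the cartilage list (permutation adjusted p = 0.0046). Tgfb3 also ran against the granulocyte list, with r = -0.79 (permutation p = 0.0004, adjusted p = 0.00447) and rho = -0.81 (permutation p = 0.00064), and r = -0.70 without the 2 farthest mice.

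Tgfbr3 and Ltbp1 also had their highest r with the osteocyte list, at 0.69 (permutation p = 0.00566, adjusted p = 0.0295 and rho = 0.71, permutation p = 0.00428) and 0.70 (permutation p = 0.00532, adjusted p = 0.0290 and rho = 0.61, permutation p = 0.0195). Without the 2 farthest mice these were 0.63 and 0.74, and without the 2 smallest libraries neither passed (r = 0.59 and 0.63, permutation adjusted p = 0.144 and 0.121). Tgfb1 followed the megakaryocyte and platelet list with r = 0.74 (permutation p = 0.00199, adjusted p = 0.0149) and rho = 0.70 (permutation p = 0.00493), with r = 0.69 without the 2 farthest mice. Tgfbr2 followed the osteoclast list with r = 0.84 (permutation p = 8e-05, adjusted p = 0.0016) and rho = 0.85 (permutation p = 0.00011), and r was 0.84 without the 2 farthest mice. Ltbp3 followed the endothelial list with r = 0.91 (permutation p = 3e-05, adjusted p = 0.0012) and rho = 0.85 (permutation p = 0.00014), with r = 0.92 without the 2 farthest mice. The endothelial list itself had r = 0.80 with the GC slope (permutation p = 0.0003, adjusted p = 0.0036 over 12 lists and rho = 0.79, permutation p = 0.00038; r = 0.77 without the 2 farthest mice). The cartilage list had r = 0.74 with it (permutation p = 0.00239, adjusted p = 0.0143 and rho = 0.71, permutation p = 0.00627) and the adipocyte list r = 0.68 (permutation p = 0.00553, adjusted p = 0.0221 and rho = 0.70, permutation p = 0.00442), and without the 2 farthest mice these were 0.71 and 0.65. None of the other 9 lists passed, among them the osteoclast list with r = 0.07 (permutation p = 0.793 and rho = 0.04, permutation p = 0.895) and the osteocyte list r = 0.22 (permutation p = 0.431 and rho = 0.13, permutation p = 0.644). Without the 2 farthest mice the osteoclast list had r = 0.14, the osteocyte list 0.50 and the granulocyte list -0.57 in place of -0.25. The low r of the osteocyte and granulocyte lists thus depended in part on those mice. The part of cell composition in the levels of the members was not tested.

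**Figure D5:**
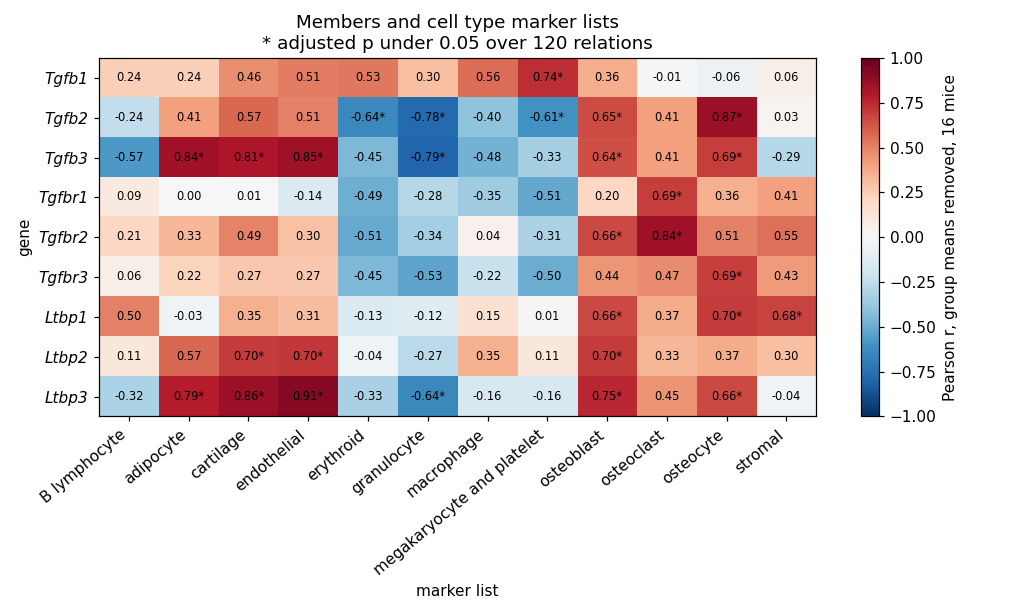
Pearson r of 9 genes with 12 marker lists over 16 mice with group means removed, an asterisk marking an adjusted p under 0.05 over 120 relations. Tgfb2 with osteocyte markers (0.87), Tgfbr2 with osteoclast markers (0.84) and Ltbp3 with endothelial markers (0.91) are the highest r of their genes.

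By the same measure, the features most like each gene over 16 mice were named, with no p because they were chosen for their r. Tgfb1 was followed most closely by 1110008P14Rik, Trim11 and Smarcd1 (r from 0.94 to 0.97), Tgfb2 by Fbln7, Igdcc4 and Dtna (0.91 to 0.94) and Tgfb3 by Meg3, Inppl1 and Angptl2 (0.97 to 0.98). For the receptors they were Atp6v1a, Itgav and Fnbp1l with Tgfbr1 (0.92 to 0.95), 8030451A03Rik, Adam12 and Fat3 with Tgfbr2 (0.91 to 0.93), and Rcn2, Gorab and Rpl39l with Tgfbr3 (0.89 to 0.92). For the latency proteins they were Mmp16, Swap70 and Kcnk1 with Ltbp1 (0.86 to 0.90), Csf1, Idua and H2afy2 with Ltbp2 (0.91 to 0.94), and Fam20a, Ift43 and Mrc2 with Ltbp3 (0.97 to 0.98). Close followers were common for some genes: r was above 0.8 for 5.62% of all features with Tgfb3 and 5.31% with Ltbp3, against 0.13% with Ltbp1 and 0.49% with Tgfbr3. Those of Ltbp4, for which no r over 16 mice is given, were Itfg3, Sox18 and Hspg2.

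These values have limits. With 8 mice in each group, the 95% interval of Ltbp4 runs from -1.12 to 1.09 and that of Tgfb2 from -0.02 to 1.10. Covariation between mice does not say which gene acts on which, and it includes differences in cell content and in library preparation that were not tested. Transcript levels say nothing of how much latent TGF-beta is stored or released in bone matrix. Cortical bone was sampled after a single period of unloading, and the cells that carried each transcript were not resolved.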

How the data were processed

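RNAseq libraries were prepared by the authors from total RNA of cortical bone with a TruSeq v2 kit, which does not mark strand, and aligned with TopHat2, to mm9 per the submitters' processing notes, which give no versions. The authors deposited RPKM values for each mouse, and the counting tool and gene lengths are not given in the sources used here. The authors name DESeq2 for their comparison, and it was not used here.

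A feature entered the tests when it averaged 0.5 RPKM or more over the 16 mice. The groups were fitted by limma 3.58.1 (R 4.3.3) to log2(RPKM + 0.1), using a variance trend and Benjamini-Hochberg adjustment over 16973 features. A fold change on this scale understates the change of low genes. For single genes a further p came from exact permutation, two-sided, over all ways to divide the mice. Correlations used 100000 permutations within groups, or all 40320 pairings within 8 mice, computed by numpy 2.4.6, pandas 2.3.3 and scipy 1.17.1 under Python 3.11.15. Within the sets of mice by Ltbp4, group means were kept and pairings crossed the groups. For the share of all features that follow a list or the GC slope 10000 permutations were used, leaving out the genes of the list. Marker scores are means of centred log2 values over the genes of a list that passed the filter.

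Reads were recovered as RPKM times length times the reads of the library, taking the smallest length that made all values whole within 0.02 reads, which was found for 16973 of 16973 features. The recovery was tested on simulated data, where its first form doubled the divisor of a small library, and a check that reads are not all multiples of 2, 3 or 5 was added. In the 16 libraries 48.7 to 50.8% of 12057 features had odd reads, so no divisor was changed. Lengths found this way are approximate, and some exceed those of GENCODE M21 on GRCm38, which served for base content, overlaps and 1 alternative order of levels. Without strand, reads of Tgfb3 and Ttll5, which overlap on opposite strands in that annotation, cannot be told apart.

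The named genes were the 10 members, the genes of each pathway list past a call rule or otherwise its 2 most abundant, the most abundant marker of each list and those at 0, and the 3 features most like each member. The members and lists were chosen with earlier results of these data known. Features that share a symbol, 3887 of them Rnf135, were tested but not named. Alternatives were other pseudocounts, filters, scalings, weights and covariates, voom on the recovered reads, a replicate block and leaving out each mouse. Chosen after seeing the data were the GC slope and its use as a covariate or regressed out, leaving out the 2 smallest libraries, levels with GENCODE lengths, the sets of mice by Ltbp4, and the promoter window and its motifs. The window ends 81 bases before the start because bases nearer to it lie in GENCODE transcripts of some of the genes.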

Additional observations from a re-analysis of the deposited data

Results flagged for a closer look

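Ltbp1 was highest in HLU 5, at 8.3748 RPKM, far from the other 7 HLU mice: its gap to the next value was 0.562 of the range of the group. HLU 5 is also 1 of the 2 smallest libraries, scaled by 7838277 reads. The 10 genes in both groups gave 20 such groups to look at, and chance picks out about 1 in 20, so a single one carries little weight.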

How the results depend on the processing

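The log2 fold changes of Tgfb2, Tgfbr3 and Ltbp3 kept their sign in all 29 alternatives (0.43 to 0.70, 0.13 to 0.32 and 0.0927 to 0.469), and no gene passed the adjusted rule in any. Other fold changes turned sign under some alternatives, Tgfb1 from -0.31 and the rest from values nearer to 0, and the cause was not tested. With erythroid and granulocyte scores as covariates Tgfb1 was 0.17, Tgfbr1 -0.25, Tgfbr2 -0.0475 and Ltbp4 0.77. Ltbp4 was also 0.0036 with a pseudocount of 0.01, 0.0583 with median-of-ratios rescaling and 0.10 with voom. Without the 2 smallest libraries, an alternative chosen after seeing the data, Tgfbr1 was -0.11 and Ltbp1 -0.0391. Leaving out 1 mouse gave the ranges -0.0220 to 0.267 for Tgfb3, -0.0344 to 0.146 for Tgfbr1, -0.0164 to 0.0952 for Ltbp1, -0.0777 to 0.171 for Ltbp2 and -0.25 to 0.20 for Ltbp4. For Tgfbr2 the range was 0.0567 (without HLU 5) to 0.159 (without Control 4).

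The count of members higher by the unadjusted rule, 0, became 2 with median-of-ratios rescaling and with quantile normalization (Tgfb2 and Tgfbr3) and 1 with voom (Tgfb2), and ran from 0 to 1 without 1 mouse. Over all features, 188 higher became 391 without a filter, 106 at a minimum mean of 2 RPKM, 376 with median-of-ratios rescaling, 460 with quantile normalization, 1569 with the blood cell covariates, 108 without the 2 smallest libraries and 117 to 363 without 1 mouse (363 without HLU 2, 310 without HLU 3, 117 without HLU 7). The 808 lower became 401, 364 and 1700 with rescaling, quantile normalization and the covariates, 1386 with the GC slope as a covariate, also added after seeing the data, and 471 to 1385 without 1 mouse (505 without Control 6, 512 without Control 7, 488 without HLU 1, 1385 without HLU 2, 471 without HLU 7). The 0 features past the adjusted rule became 1 without a filter, 1 without a variance trend, 15 with the covariates and 0 to 1 without 1 mouse (1 without HLU 2). Scaling thus moved the split of higher and lower calls. Ltbp4 did not pass the filter at a minimum mean of 2 RPKM and has no value there.

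Replicate numbers did not pair the mice: deviations of same-numbered mice correlated between -0.17 and 0.51, and 1 of 8 Control mice correlated best with its own number. With the number as a replicate block 199 features were higher and 840 lower, and no member was called.

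With the GC slope regressed out, also added later and with p-values that do not count the term removed, 27 pairs rather than 11 and 54 list relations rather than 31 had an adjusted p under 0.05. Neither count has a share over all features beside it, so neither says anything particular about these genes. Of 42 relations called with all mice and group means removed, 42 stayed called at a pseudocount of 1, 38 with median-of-ratios rescaling, 37 with the GC slope regressed out and 27 without the 2 smallest libraries, and none changed sign. Some calls lost with 14 mice had nearly the same r, such as 0.67 in place of 0.68 for Tgfb2 and Tgfbr3 and -0.65 in place of -0.64 for Ltbp3 and the granulocyte list. Depth limits Ltbp4 most, at 21 reads in its lowest library.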
